A study of Mus musculus with 12 samples.

Results

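The smooth muscle contractile apparatus and its regulators were followed as 37 genes in mouse thoracic aorta, chosen by gene symbol from a count table of 27933 genes. The 37 genes comprise 9 of the thin filament, 4 of myosin and its kinase, 6 that set myosin phosphatase activity, 4 transcription factors and coactivators, 2 intermediate filament genes, 11 actin crosslinkers, LIM proteins and dense body genes, and 1 gene of the sarcoplasmic reticulum. Bulk RNA was sequenced from 12 C57BL/6J libraries in 4 groups of 3. The WT Nicotine group (libraries 6, 11 and 12) breathed nicotine vapor and the WT Air group (8, 9 and 10) room air. The KO Nicotine group (3, 4 and 5) and the KO Air group (1, 2 and 7) carry the label of an alpha7 nicotinic acetylcholine receptor (alpha7-nAChR) knockout, and neither an allele nor a promoter is given. In all 4 groups exposure began at 5 months of age, ran for 12 weeks, and aortas were collected at 8 months. The labels do not say that each library is a separate mouse, so the p-values weigh differences against the scatter of libraries, which can be partly technical.

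Vascular smooth muscle shortens when myosin, activated by phosphorylation of its regulatory light chain, pulls on actin filaments that carry tropomyosin, calponin and caldesmon. Myosin light chain kinase adds the phosphate after calcium entry, and myosin phosphatase removes it unless an inhibitor such as CPI-17 holds that enzyme back. Most genes of this set are switched on by serum response factor, which binds the CArG box, and by its coactivators myocardin and the myocardin-related factors. In the aorta they mark the contractile state of the medial smooth muscle cell.

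Counts per library summed to between 10240031 and 12628323, and the 37 genes took 5.06 to 8.93% of them. Chrna7, the gene of the alpha7 receptor, had only 8 to 28 counts in KO libraries and 9 to 37 in WT libraries. Its KO against WT log2 fold change was -0.15 ± 0.33 (SE) over both exposures, so the genotype could not be checked from these counts, and KO stands for libraries that carry that label. Values below are CPM, in which each library's total is set to the same size with TMM scaling. Log2 fold changes with their standard errors (SE) come from edgeR's quasi-likelihood test fitted to 14621 genes, all 37 included. A gene was called at a Benjamini-Hochberg adjusted p under 0.05 over all 14621 genes.

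Genes were set side by side per kilobase of exon, with the exons of all annotated transcripts of a gene joined. That length can exceed the transcript present in aorta, which understates genes with many transcript forms, so the order is approximate. On this scale Acta2 (smooth muscle alpha-actin) stood first in WT Air with a mean level of 5647 ± 1011 CPM per kb (SD, n = 3). Myh11, the smooth muscle myosin heavy chain, followed at 2377 ± 501 and Tagln, the actin-binding protein SM22, at 2209 ± 467 CPM per kb, with overlapping libraries. Myl9, the regulatory light chain, was at 1698 ± 348 and the crosslinker Flna, filamin A, at 1374 ± 213 CPM per kb. The transcripts of the transcriptional regulators lay below all 9 of the thin filament and all 4 of myosin and its kinase, of which Actg2 was the lowest at 162 ± 51.2 CPM per kb. Myocd (myocardin) averaged 61.1 ± 10.5, Srf (serum response factor) 39.1 ± 7.11, Mkl2 10.3 ± 0.700 and Mkl1 7.14 ± 0.532 CPM per kb. Casq2, the calcium-binding calsequestrin of the sarcoplasmic reticulum, was barely detected, with 1 to 55 counts per library.

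The first question was whether nicotine vapor altered these genes. Most of them had lower mean values in nicotine libraries of both genotypes (fold changes in WT of 0.712 for Acta2, 0.785 for Myh11 and 0.630 for Lmod1), and 0 of 37 passed the edgeR threshold in WT, in KO or in the average of both. Log2 fold changes were below 0 for 34 of 37 genes in WT, where 50.6% of all tested genes were below 0, for 30 of 37 in KO (48.5%) and for 34 of 37 in the average (48.6%). Their median log2 fold change was -0.42 in WT, -0.27 in KO and -0.35 in the average, beside medians of -0.00 in WT, 0.01 in KO and 0.01 in the average over all tested genes. In bulk tissue, fewer smooth muscle cells and less of these transcripts per cell cannot be told apart.

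No gene of the set was called, where calls took 0.0205% of all tested genes in WT (3 genes, all higher), and 0% in KO and in the average. At an unadjusted p under 0.05, 14 of 37 were lower in WT (4.41% of all tested genes), 5 of 37 in KO (2.10%) and 21 of 37 in the average (5.33%). At the same limit 0 of 37 were higher in each, beside 5.43% of all tested genes in WT, 2.48% in KO and 5.62% in the average. DESeq2 called 0 of 37 in WT, 0 in KO and 1, Lmod1, in the average, where it called 0.803%, 0% and 0.76% of all genes it tested. The limma voom fit called 0 of 37 in each, beside 0.0205% of all tested genes in WT and 0% in KO and in the average. The counts at unadjusted p moved with single libraries and with covariates. Over fits leaving out 1 library they ran from 0 without WT Air 9 to 21 without WT Air 8 in WT, from 0 without KO Nicotine 3 to 20 without KO Nicotine 5 in KO, and from 11 without WT Air 9 or KO Nicotine 4 to 26 without WT Air 8 or WT Nicotine 12 in the average. With the adipocyte marker score as a covariate they were 0 in WT, 6 in KO and 4 in the average, and with the skeletal muscle marker score 3, 0 and 2. The median log2 fold change in KO ran from -0.46 without KO Nicotine 5 to -0.14 without KO Nicotine 4.

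**Figure D1:**
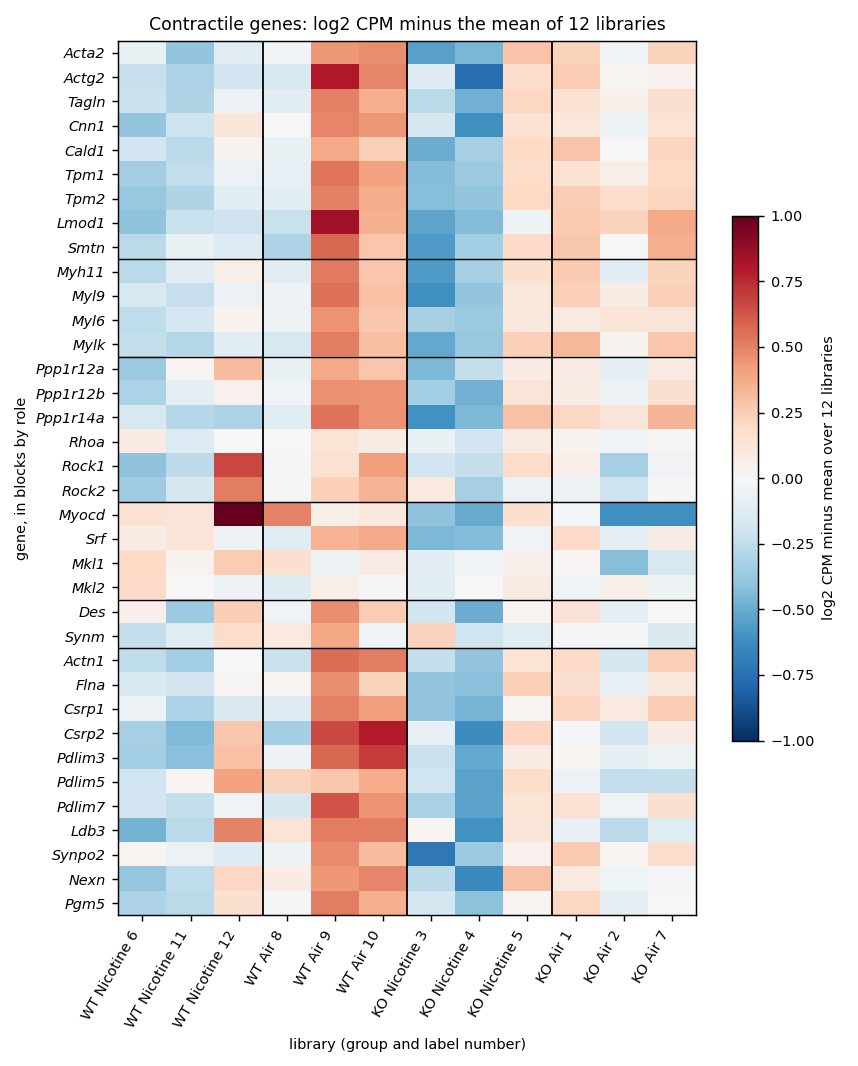
Log2 CPM of 36 contractile genes in each of 12 libraries, as the difference from the gene's mean over the 12 (colour scale -1 to 1, red higher). Rows are genes in blocks by role, and columns are libraries by group; Casq2, with 1 to 55 counts, is left out. WT Air 9 and 10 are red in most rows and KO Nicotine 3 and 4 blue, while WT Air 8 and KO Nicotine 5 lie on the other side of their groups.

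The libraries of a group did not lie together. WT Air 9 held the highest value of all 12 libraries for 24 of the 37 genes and WT Air 10 for another 6, while KO Nicotine 4 held the lowest for 17 and KO Nicotine 3 for 13. The median deviation of the 37 genes from their own 12-library means was -0.24 log2 in WT Nicotine 6 and -0.24 in WT Nicotine 11, but 0.03 in WT Nicotine 12. In WT Air it was -0.05, 0.48 and 0.36 in libraries 8, 9 and 10. KO Nicotine 3 and 4 stood at -0.32 and -0.41, and KO Nicotine 5 at 0.13, above 2 of the 3 KO Air libraries, which were at 0.15, -0.04 and 0.11. WT Air 8 and KO Nicotine 5 therefore lay among the libraries of the other exposure, and each result below carries this split. The share of counts from mitochondrial genes was 7.52% in WT Air 8, 7.25% in KO Nicotine 4 and 6.23% in KO Nicotine 3. It was 3.0% in WT Air 9, 3.62% in WT Air 10, 4.38% in KO Nicotine 5 and between 3.73 and 5.70% in the other libraries. Its part in the differences below was not tested.

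Thin filament genes were below 0 in both genotypes for 9 of 9. Their median log2 fold change was -0.49 in WT, -0.33 in KO and -0.41 in the average. In the average 9 of 9 were lower at an unadjusted p under 0.05, beside 5.33% of all tested genes. Each had its lowest value in KO Nicotine 3 or 4 and its highest in WT Air 9 or 10, so these are not 9 separate observations. Acta2 had 9556, 7630.3 and 9305 CPM in WT Nicotine, against 9842, 13533 and 13829 CPM in WT Air. In KO libraries it had 6891, 7309 and 12246 CPM in KO Nicotine, against 11692, 9810.4 and 11731 CPM in KO Air. Each WT Nicotine library lay below each WT Air library, whereas KO Nicotine 5 lay above all of KO Air. The log2 fold change of Acta2 was -0.49 ± 0.24 in WT (edgeR adjusted p = 0.528) and -0.33 ± 0.24 in KO (adjusted p = 0.878).

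Lmod1, leiomodin, which seeds new actin filaments, had the smallest p of the set in both genotypes. It had 649.5, 736 and 747 CPM in WT Nicotine, against 737, 1547 and 1101 CPM in WT Air. The KO values were 596, 636 and 833 CPM in KO Nicotine, against 1033, 1005 and 1116 CPM in KO Air. All 3 KO Nicotine libraries were below all 3 KO Air libraries, and in WT the groups overlapped only through WT Air 8, at 737 CPM, which lay below WT Nicotine 12, at 747. The log2 fold change was -0.67 ± 0.22 in WT (edgeR adjusted p = 0.362), -0.61 ± 0.22 in KO (adjusted p = 0.878) and -0.64 ± 0.16 in the average (adjusted p = 0.301). DESeq2 gave Lmod1 an adjusted p of 0.0191 in the average at a log2 fold change of -0.63. Without WT Air 8, edgeR gave Lmod1 an adjusted p of 0.0342 at -0.74. That fit called 38 genes over all tested in the average, beside 0 in the main fit. Over edgeR fits leaving out each library in turn the adjusted p of Lmod1 ran from 0.0342 to 0.709.

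Tpm2, beta-tropomyosin, which lies along the actin filament, had 1521, 1603 and 1836 CPM in WT Nicotine, against 1839, 2799 and 2557 CPM in WT Air. In KO libraries Tpm2 had 1470.1, 1499 and 2266 CPM in KO Nicotine, against 2337, 2225 and 2291 CPM in KO Air. WT Nicotine 12 came close to WT Air 8 without reaching it, and KO Nicotine 5 lay among the KO Air values. Its log2 fold change was -0.54 ± 0.20 in WT, -0.39 ± 0.20 in KO and -0.46 ± 0.14 in the average (edgeR adjusted p = 0.336).

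Actg2, the gamma-actin of enteric smooth muscle, had 159.9, 150.4 and 164 CPM in WT Nicotine, against 168, 326 and 262 CPM in WT Air. Among KO libraries the values were 171, 111 and 211 CPM in KO Nicotine, against 224, 190.2 and 193 CPM in KO Air. WT Nicotine 12 and WT Air 8 lay side by side, and KO Nicotine 5 lay within KO Air. The difference on the log2 scale was -0.67 ± 0.24 in WT and -0.30 ± 0.24 in KO. Actg2, Acta2 and the other actins have similar coding sequences. How reads fitting several genes were counted is not given in the sources used here, so the split between these genes is uncertain.

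Tagln had 3118, 2952 and 3473 CPM in WT Nicotine, against 3356, 5152 and 4665 CPM in WT Air. In KO libraries it had 3008, 2596 and 4182 CPM in KO Nicotine, against 4034, 3763 and 4044 CPM in KO Air. WT Nicotine 12 lay above WT Air 8, and KO Nicotine 5 lay above all of KO Air. Its log2 fold change was -0.47 ± 0.20 in WT and -0.28 ± 0.20 in KO (edgeR adjusted p = 0.485 and 0.878). The other 4 thin filament genes, Cnn1 (calponin), Cald1 (caldesmon), Tpm1 (alpha-tropomyosin) and Smtn (smoothelin), ran from -0.52 for Tpm1 to -0.33 for Cald1 in WT and from -0.42 for Smtn to -0.25 for Cnn1 in KO.

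**Figure D2:**
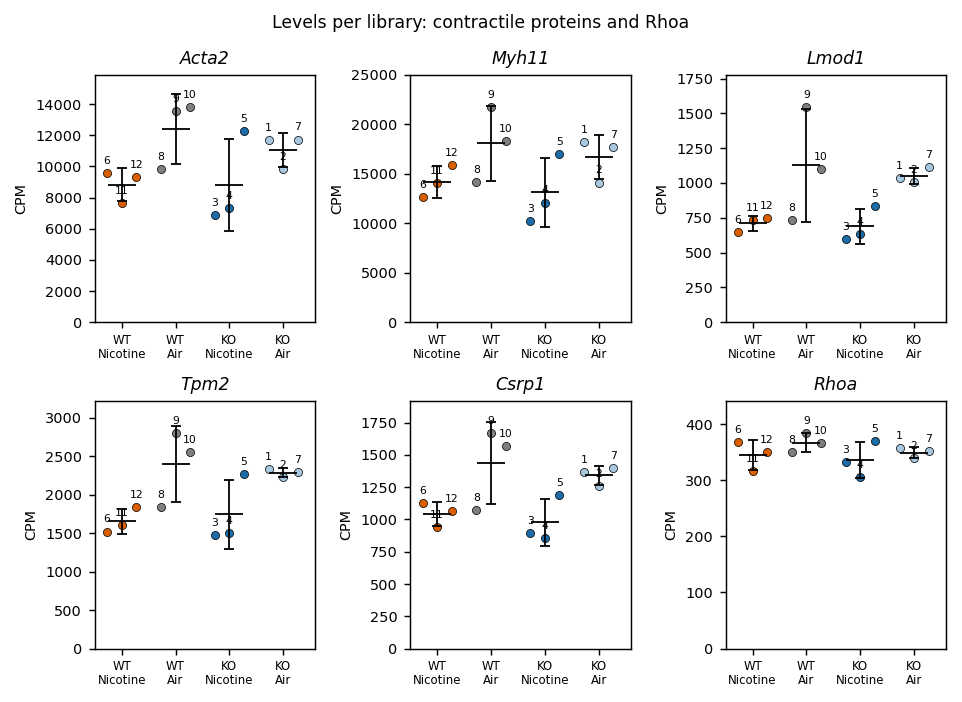
CPM per library (points, numbered by library) with group mean and SD (bars, n = 3) for Acta2, Myh11, Lmod1, Tpm2, Csrp1 and Rhoa in WT Nicotine, WT Air, KO Nicotine and KO Air. WT Air 8 sits with WT Nicotine and KO Nicotine 5 near KO Air in the contractile genes, and Rhoa stays between 306 and 384 CPM in all 12 libraries.

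The 4 genes of myosin and its kinase were below 0 in both genotypes, with a median of -0.40 in WT and -0.37 in KO. Myh11 had 12600.2, 14072 and 15867 CPM in WT Nicotine, against 14148, 21756 and 18294 CPM in WT Air. The KO values were 10272, 12094 and 17000.2 CPM in KO Nicotine, against 18224, 14113 and 17744 CPM in KO Air. The groups overlapped in both genotypes. The difference on the log2 scale was -0.35 ± 0.24 in WT and -0.35 ± 0.24 in KO (edgeR adjusted p = 0.654 and 0.878).

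Mylk, the kinase that phosphorylates the regulatory light chain, had 1735, 1684 and 1892 CPM in WT Nicotine, against 1837, 2917 and 2529 CPM in WT Air. In KO libraries Mylk had 1434, 1577 and 2417 CPM in KO Nicotine, against 2583, 2097 and 2478 CPM in KO Air. WT Nicotine 12 lay above WT Air 8, and KO Nicotine 5 lay above KO Air 2. Its log2 fold change was -0.46 ± 0.21 in WT and -0.40 ± 0.21 in KO. Myl9 stood at -0.43 ± 0.20 in WT, where its groups did not overlap, and at -0.45 ± 0.20 in KO. Myl6, the essential light chain, stood at -0.36 ± 0.17 in WT and -0.30 ± 0.17 in KO.

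Of the genes that set phosphatase activity, the inhibitor and the targeting subunits of the enzyme had log2 fold changes below 0 in both genotypes. Ppp1r14a, which encodes the phosphatase inhibitor CPI-17, ranged over 167 to 186 CPM in WT Nicotine and 191 to 303 CPM in WT Air, without overlap, a log2 fold change of -0.57 ± 0.22. In KO libraries its ranges, 137 to 255 CPM in KO Nicotine and 226 to 263 CPM in KO Air, overlapped, with a log2 fold change of -0.42 ± 0.22. The targeting subunits of the phosphatase, Ppp1r12a and Ppp1r12b, stood at -0.20 and -0.42 in WT and at -0.22 and -0.27 in KO.

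Rhoa, which encodes a small GTPase, was the steadiest gene of the set within groups, with a within-group SD of 0.10 on the log2 scale. The difference on the log2 scale was -0.09 ± 0.11 in WT (95% interval -0.33 to 0.16) and -0.06 ± 0.11 in KO (-0.30 to 0.19). Rock1 and Rock2, which encode protein kinases, stood at -0.11 and -0.15 in WT. In KO they stood at 0.03 for Rock1 and, with a 95% interval of -0.44 to 0.44, -0.00 for Rock2. WT Nicotine 12 held the highest Rock1 and Rock2 of all 12 libraries, at 1616 and 907 CPM.

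**Figure D3:**
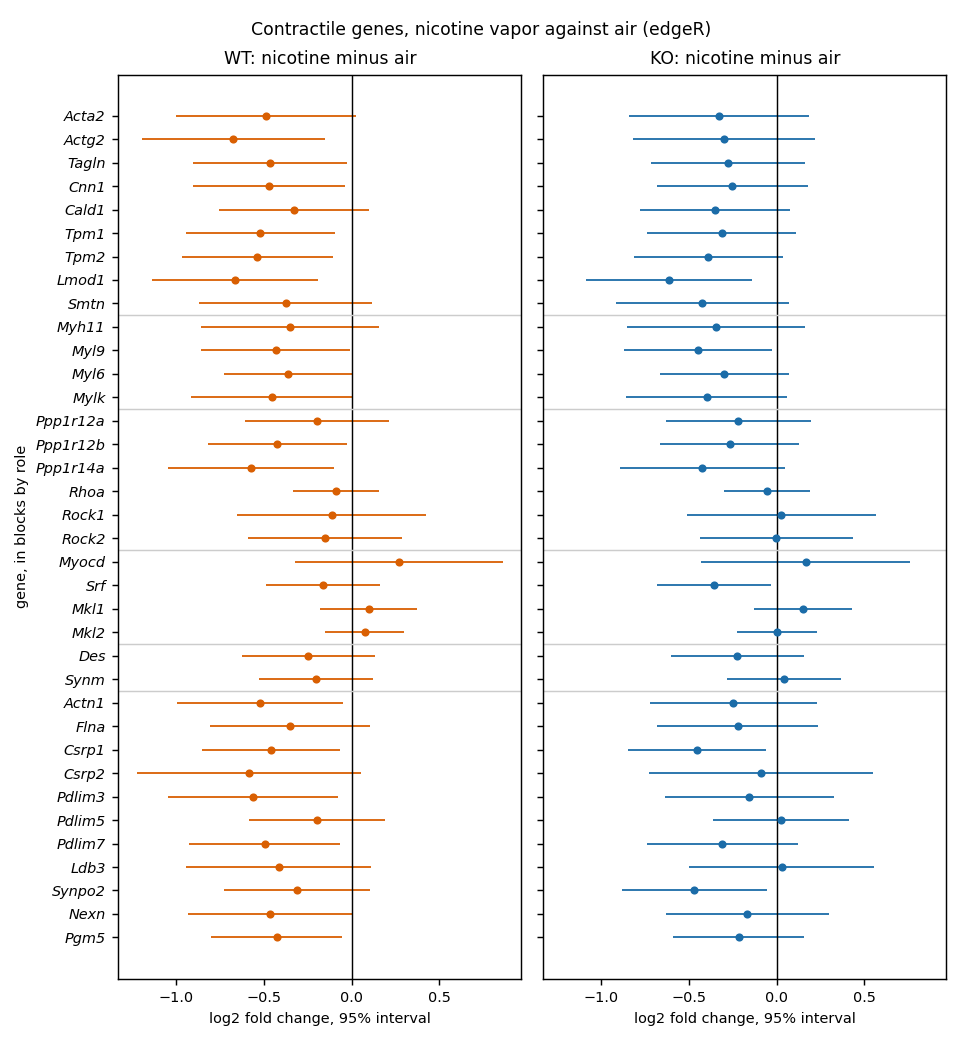
Log2 fold change of nicotine against air for 36 contractile genes in WT (left) and KO (right), with 95% intervals from the edgeR fit; genes run down the page in blocks by role, and Casq2 is left out. Point estimates of thin filament and myosin genes lie below 0 in both panels, those of Myocd, Mkl1 and Mkl2 lie at or above 0, and intervals lie wholly below 0 for 14 genes in WT and 5 in KO.

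Of the 4 transcription factors and coactivators, 3 lay above 0 in both genotypes, unlike most of the filament genes. Myocd, Mkl1 and Mkl2 had log2 fold changes of 0.27, 0.10 and 0.07 in WT and 0.17, 0.15 and 0.00 in KO, and Srf was at -0.16 in WT and -0.36 in KO. Srf had 102, 106 and 94.1 CPM in WT Nicotine, against 89.4, 124 and 126 CPM in WT Air. Among KO libraries the values were 71.4, 72.0 and 94.2 CPM in KO Nicotine, against 111, 91.4 and 102 CPM in KO Air. WT Air 8 was the lowest of the 6 WT libraries, and the KO groups overlapped only through KO Nicotine 5 and KO Air 2. The log2 fold change of Srf was -0.16 ± 0.15 in WT (edgeR adjusted p = 0.753) and -0.36 ± 0.15 in KO (adjusted p = 0.878).

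Myocd had 371, 365 and 686 CPM in WT Nicotine, against 470.1, 348 and 360.0 CPM in WT Air. In KO libraries it had 252, 236 and 374 CPM in KO Nicotine, against 332, 218 and 219 CPM in KO Air. WT Nicotine 12 stood far above every other library, the other WT Nicotine libraries lay inside the range of WT Air, and the KO groups overlapped. The log2 fold change of Myocd was 0.27 ± 0.27 in WT and 0.17 ± 0.27 in KO (edgeR adjusted p = 0.778 and 0.931); without WT Nicotine 12 the WT value was -0.09, and without KO Nicotine 5 the KO value was -0.07. Mkl1, the actin-regulated coactivator MRTF-A, had 47.8, 42.7 and 49.8 CPM in WT Nicotine, against 46.6, 40.2 and 44.2 CPM in WT Air. In KO libraries Mkl1 had 38.7, 40.7 and 43.1 CPM in KO Nicotine, against 42.2, 30.9 and 37.2 CPM in KO Air. All of these groups overlapped.

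The CArG box, a short stretch of A and T bases between a pair of C and a pair of G, was searched for on both strands in the 250 bases before each start site, using RefSeq promoters of build GRCm38.p6. Of the 37 genes, 30 matched an entry, and Actg2, Tagln, Myh11, Rock1, Myocd, Csrp2 and Nexn did not. The box was found in 4 of the 30 genes (13.3%), Myl9, Myl6, Srf and Ldb3, against 439 of 27025 genes with an entry (1.62%). A box with 1 G or C in its A and T stretch was found in 5 of the 30 (16.7%), against 8.33% of all genes, and Acta2 held a pair of them. Matches are letters in a window, not shown binding sites. Promoters of Srf and Myl9 are printed because they hold exact boxes in a factor and in one of its contractile targets. Acta2 is printed for its pair of near matches and Ldb3 because it recurs in the genotype comparison. Capitals mark exact boxes, and near matches in Acta2 only, so 1 near match in Myl9 stays in lower case.
Srf (GRCm38.p6, chr17:46556163-46556412, minus strand): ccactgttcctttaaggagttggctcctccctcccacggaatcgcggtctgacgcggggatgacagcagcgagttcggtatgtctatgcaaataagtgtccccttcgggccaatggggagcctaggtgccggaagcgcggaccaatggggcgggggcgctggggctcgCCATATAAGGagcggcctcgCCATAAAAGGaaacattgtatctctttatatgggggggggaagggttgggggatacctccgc
Myl9 (GRCm38.p6, chr2:156775214-156775463, plus strand): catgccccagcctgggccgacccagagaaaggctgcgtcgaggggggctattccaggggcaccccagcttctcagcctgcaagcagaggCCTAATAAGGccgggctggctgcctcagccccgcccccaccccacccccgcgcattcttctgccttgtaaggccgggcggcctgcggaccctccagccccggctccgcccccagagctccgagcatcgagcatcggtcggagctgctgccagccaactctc
Acta2 (GRCm38.p6, chr19:34255374-34255623, minus strand, near matches): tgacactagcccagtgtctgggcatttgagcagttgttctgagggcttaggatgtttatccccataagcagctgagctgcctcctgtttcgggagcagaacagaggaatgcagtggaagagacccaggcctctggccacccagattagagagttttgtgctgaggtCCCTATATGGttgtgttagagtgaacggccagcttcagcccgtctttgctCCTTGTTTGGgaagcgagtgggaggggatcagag
Ldb3 (GRCm38.p6, chr14:34588608-34588857, minus strand): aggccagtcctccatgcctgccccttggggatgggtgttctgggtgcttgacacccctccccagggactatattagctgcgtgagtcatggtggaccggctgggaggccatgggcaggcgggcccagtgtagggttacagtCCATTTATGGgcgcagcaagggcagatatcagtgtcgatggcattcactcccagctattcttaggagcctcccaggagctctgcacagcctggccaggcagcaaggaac
The boxes lie 82 to 73 and 62 to 53 bases before the start in Srf, 161 to 152 in Myl9, and 109 to 100 before this start of Ldb3, with the near matches of Acta2 at 84 to 75 and 34 to 25.

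The intermediate filament genes had smaller differences. Des, which encodes desmin, stood at -0.25 ± 0.18 in WT and -0.22 ± 0.18 in KO. Synm, which encodes its partner synemin, stood at -0.20 ± 0.15 in WT and 0.04 ± 0.15 in KO.

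Crosslinkers, LIM proteins and dense body genes, which tie actin filaments together and to the cell border, were below 0 for 11 of 11 in WT (median -0.46) and 9 of 11 in KO (median -0.22). Csrp1, a cysteine-rich LIM protein bound to actin bundles, had 1127, 944 and 1065 CPM in WT Nicotine, against 1075, 1669 and 1572 CPM in WT Air. The KO values were 892, 853 and 1189 CPM in KO Nicotine, against 1365, 1261 and 1399 CPM in KO Air. The KO groups did not overlap, and in WT only WT Air 8 fell among the nicotine values. Csrp1 had a log2 fold change of -0.46 ± 0.18 in WT and -0.46 ± 0.18 in KO, and -0.46 ± 0.13 in the average (edgeR adjusted p = 0.332).

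Synpo2, an actin-bundling protein of the dense body, had 1605, 1513 and 1439.9 CPM in WT Nicotine, against 1520.3, 2187 and 1947 CPM in WT Air. In KO libraries Synpo2 had 956, 1226 and 1617 CPM in KO Nicotine, against 1882, 1594 and 1781 CPM in KO Air. WT Air 8 again lay among the nicotine libraries, and KO Nicotine 5 lay just above KO Air 2. Its log2 fold change was -0.31 ± 0.19 in WT and -0.47 ± 0.19 in KO. Flna stood at -0.35 ± 0.21 in WT, where its groups did not overlap, and -0.22 ± 0.21 in KO, and Actn1, alpha-actinin, at -0.52 ± 0.22 in WT and -0.25 ± 0.22 in KO. Pdlim7, Nexn and Pgm5 stood at -0.50, -0.47 and -0.43 in WT and at -0.31, -0.17 and -0.22 in KO. Pdlim3, Pdlim5, Csrp2 and Ldb3, whose library values follow below, stood at -0.56, -0.20, -0.58 and -0.42 in WT and at -0.16, 0.03, -0.09 and 0.03 in KO. Casq2, at its few counts, stood at -0.23 ± 0.84 in WT and -0.63 ± 0.84 in KO.

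Groups did not overlap, with nicotine lower, for 6 of 37 genes in WT (Acta2, Actg2, Tpm2, Myl9, Ppp1r14a and Flna), where 6.05% of all tested genes did so. In KO, 2 of 37 did so (Lmod1 and Csrp1), beside 5.55% of all tested genes, a share near the background. In sign, 30 of 37 were below 0 in WT and in KO, 3 were above 0 in both and 4 differed in sign. At an unadjusted p under 0.05, Lmod1, Myl9 and Csrp1 were lower in WT and in KO, which is 3 of the 14 genes in WT and 3 of the 5 in KO. The share of all tested genes meeting either condition in both genotypes was not computed. Genes of the set also moved together by library, so these counts are not read as agreement between genotypes.

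Whether the nicotine difference depended on the receptor label was asked by the interaction, KO minus WT of nicotine minus air. It called 0 of 37 genes (0% of all tested genes were called), edgeR had 0 of 37 at an unadjusted p under 0.05 (4.43% of all tested genes), and DESeq2 and limma voom called 0 (0.0616% and 0% of all genes they tested). The log2 interaction was below 0 for 9 of 37 genes (47.1% of all tested genes) and above 0 for 28. A value above 0 means that the nicotine log2 fold change was higher in KO than in WT. The median interaction was 0.14 beside 0.02 over all tested genes. Without KO Nicotine 5 the median was -0.10, and with the adipocyte marker score as a covariate it was -0.060, with 24 of 37 below 0, so its sign depended on that library and on the covariate.

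The smallest interaction p-values belonged to 3 LIM genes of the Z-disc and dense body type. Ldb3, which encodes the PDZ and LIM protein Cypher, had 100.04, 115 and 196 CPM in WT Nicotine, against 152, 198 and 198 CPM in WT Air. Among KO libraries the values were 141, 90.9 and 151 CPM in KO Nicotine, against 131, 116 and 128 CPM in KO Air. WT Nicotine 12 matched the high WT Air libraries. Ldb3 had an interaction of 0.44 ± 0.34 (edgeR adjusted p = 0.999).

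Pdlim3, another PDZ and LIM protein that binds alpha-actinin, had 152, 144 and 236 CPM in WT Nicotine, against 186, 287 and 313 CPM in WT Air. In KO libraries it had 166, 135 and 204 CPM in KO Nicotine, against 195, 181 and 186 CPM in KO Air. Its WT Air libraries 9 and 10 stood above the other 10 libraries. Its interaction was 0.41 ± 0.32.

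Csrp2, a second cysteine-rich LIM protein, had 442, 410.2 and 669 CPM in WT Nicotine, against 439, 879.6 and 964 CPM in WT Air. In KO libraries Csrp2 had 526, 360.2 and 645 CPM in KO Nicotine, against 549.8, 487 and 589.7 CPM in KO Air. WT Air 9 and 10 were again the highest, and WT Air 8 was among the lowest. Its interaction was 0.50 ± 0.41.

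The last question was how libraries labelled KO differed from WT under the same exposure. The smallest p-values belonged to regulators and LIM genes, all with lower values in KO, and 0 of 37 genes were called in air, in nicotine or in the average, where 0%, 0.00684% and 0% of all tested genes were called. DESeq2 called 0 of 37 in each, where it called 0.089%, 0.659% and 0.836% of all genes it tested, and limma voom 0 of 37, where it called 0%, 0.00684% and 0%. At an unadjusted p under 0.05, 3 of 37 were lower in air (2.12% of all tested genes), 2 in nicotine (4.06%) and 4 in the average (4.27%). At that limit 0 of 37 were higher, beside 2.24% of all tested genes in air, 4.29% in nicotine and 4.13% in the average. Log2 fold changes were below 0 for 35 of 37 in air (49.8% of all tested genes), 28 in nicotine (47.7%) and 34 in the average (48.0%). The medians were -0.18 in air, -0.06 in nicotine and -0.12 in the average, beside 0.00, 0.01 and 0.01 over all tested genes. Single libraries and the adipocyte covariate moved these medians. In nicotine the median was 0.030 without KO Nicotine 4 (14 of 37 below 0), 0.029 without WT Nicotine 12 (15 of 37) and -0.25 without KO Nicotine 5 (36 of 37). In air it ran from -0.29 without WT Air 8 to -0.087 without WT Air 9, and in the average from -0.23 without KO Nicotine 5 to -0.049 without WT Air 9. With the adipocyte marker score as a covariate it was -0.018 in air (21 of 37 below 0), -0.082 in nicotine and -0.054 in the average. These comparisons share libraries with the nicotine comparisons above.

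Myocd had 252, 236 and 374 CPM in KO Nicotine, against 371, 365 and 686 CPM in WT Nicotine. Under room air it had 332, 218 and 219 CPM in KO Air, against 470.1, 348 and 360.0 CPM in WT Air. In air each KO library lay below each WT library, while in nicotine KO Nicotine 5, at 374 CPM, lay above WT Nicotine 6 and 11. The log2 fold change of Myocd was -0.72 ± 0.27 in nicotine (edgeR adjusted p = 0.482), -0.62 ± 0.27 in air (adjusted p = 0.995) and -0.67 ± 0.19 in the average (adjusted p = 0.399). Over fits leaving out each library in turn, the average ran from -0.79 to -0.49 with an adjusted p of 0.208 to 0.772, and DESeq2 gave an adjusted p of 0.0603.

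Srf had 71.4, 72.0 and 94.2 CPM in KO Nicotine, against 102, 106 and 94.1 CPM in WT Nicotine. Under room air Srf had 111, 91.4 and 102 CPM in KO Air, against 89.4, 124 and 126 CPM in WT Air. KO Nicotine 3 and 4 lay below all of WT Nicotine, KO Nicotine 5 was level with WT Nicotine 12, and the air groups overlapped. The difference on the log2 scale was -0.35 ± 0.15 in nicotine and -0.16 ± 0.15 in air (edgeR adjusted p = 0.556 and 0.995). Mkl1 stood at -0.20 ± 0.13 in nicotine and -0.25 ± 0.13 in air. Mkl2, its relative MRTF-B, stood at -0.06 ± 0.11 in nicotine and 0.02 ± 0.11 in air.

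Pdlim5, a PDZ and LIM protein of the alpha-actinin complex, had 246, 195 and 322 CPM in KO Nicotine, against 246, 286 and 373 CPM in WT Nicotine. Under room air it had 272, 238 and 239.6 CPM in KO Air, against 332, 341 and 365 CPM in WT Air. Its air groups did not overlap, and its nicotine groups did. Pdlim5 had a log2 fold change of -0.25 ± 0.18 in nicotine and -0.47 ± 0.18 in air (edgeR adjusted p = 0.789 and 0.995). Ldb3, with the values given above, stood at -0.10 ± 0.24 in nicotine and -0.55 ± 0.24 in air.

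In air, 3 of 37 genes, Myocd, Pdlim5 and Ldb3, had KO libraries below all WT libraries, beside 6.06% of all tested genes. In nicotine 0 of 37 did so, beside 5.59%. Among transcripts of the filaments and their kinase, the KO against WT log2 fold change in nicotine was -0.00 for Acta2, 0.04 for Tagln, -0.11 for Myh11 and 0.03 for Mylk. The median standard error of a difference of 2 groups was 0.22 over all tested genes. Without KO Nicotine 5 the median of the 37 genes in nicotine was -0.25, so these values do not show that the genotypes were alike. In air the same genes stood at -0.16 for Acta2, -0.15 for Tagln, -0.11 for Myh11 and -0.02 for Mylk.

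**Figure D4:**
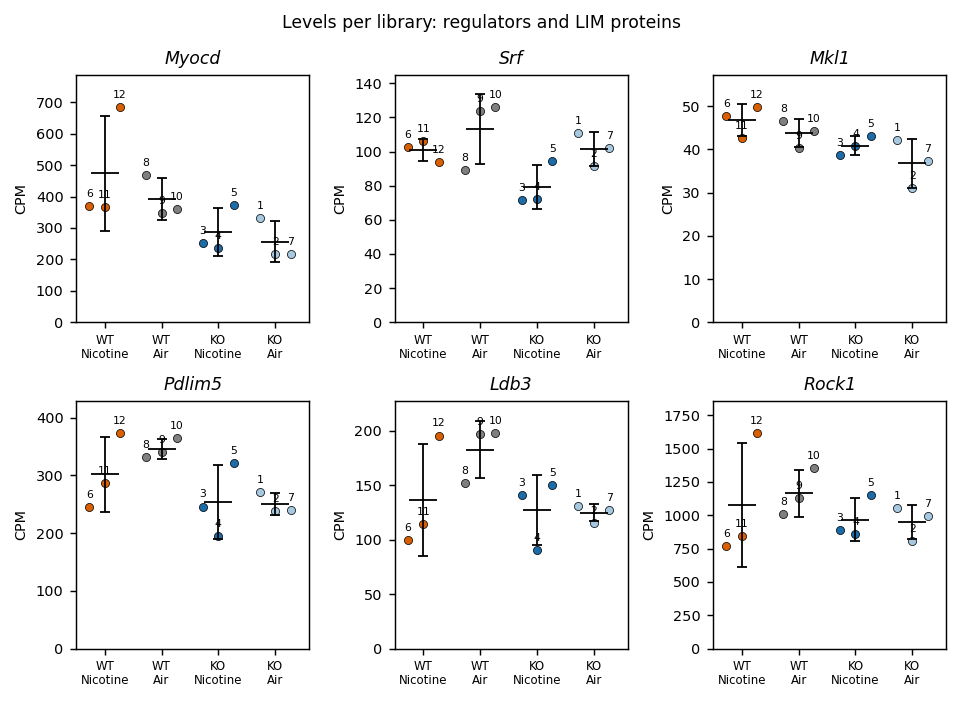
CPM per library (points, numbered by library) with group mean and SD (bars, n = 3) for Myocd, Srf, Mkl1, Pdlim5, Ldb3 and Rock1 in WT Nicotine, WT Air, KO Nicotine and KO Air. WT Nicotine 12 is the highest library for Myocd, at 686 CPM, and for Rock1, and KO Air lies below WT Air for Myocd, Pdlim5 and Ldb3.

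Ratios between genes within a library compare them free of library scaling. Over 12 ratios and 2 contrasts, exact permutation tests of 6 against 6 libraries, two-sided and permuted within genotype or exposure, gave an adjusted p under 0.05 for 0 of 24. The smallest p these 400 arrangements allow is 0.005, so a single ratio could not go below an adjusted p of 0.12. The ratio of Tpm2 to Tpm1 was 1.09, 1.06 and 1.10 in KO Nicotine and 1.06, 1.04 and 1.05 in WT Nicotine. It was 1.16, 1.18 and 1.10 in KO Air and 1.07, 1.06 and 1.06 in WT Air. The KO libraries were higher in both exposures, narrowly so between KO Nicotine 4 and WT Nicotine 6, by 0.07 on the log2 scale (exact permutation p = 0.005, adjusted p = 0.12). Nicotine libraries were lower than air libraries by a log2 difference of -0.05 (exact permutation p = 0.01, adjusted p = 0.12), and overlapped in WT.

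The ratio of Myocd to Srf was 3.62, 3.43 and 7.29 in WT Nicotine and 5.26, 2.81 and 2.85 in WT Air. It was 3.53, 3.27 and 3.97 in KO Nicotine and 2.99, 2.39 and 2.14 in KO Air. Its log2 difference was 0.45 for nicotine against air (exact permutation p = 0.095, adjusted p = 0.42) and -0.41 for KO against WT (exact permutation p = 0.12, adjusted p = 0.42). Without WT Nicotine 12 these were 0.27 and -0.23, and without WT Air 8 the KO against WT difference was -0.26. The KO exposure groups did not overlap, and the WT groups did. Ratios of Tagln and Myh11 to Acta2 differed between nicotine and air by 0.05 and 0.08 on the log2 scale (exact permutation p = 0.5 and 0.4).

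Of 91 further genes of the same pathway, 89 were tested and none passed the edgeR threshold in any of the 7 contrasts. In the average nicotine comparison 64 of 89 were below 0 (48.6% of all tested genes), with a median of -0.12. At an unadjusted p under 0.05, 15 of 89 were lower (5.33% of all tested genes) and 3 of 89 higher (5.62%). The adhesion, LIM and SRF target genes among them were below 0 for 32 of 36, with 9 lower and 0 higher at an unadjusted p under 0.05. The smallest p-values belonged to Klf4, a factor known to repress the contractile genes, at 0.67 (edgeR adjusted p = 0.161), Arhgap42 at 0.71 and Mustn1, at -0.59. Klf4 stood at 0.85 in WT and 0.50 in KO. Between genotypes the smallest adjusted p was that of Filip1l in nicotine, 0.0896 at a log2 fold change of -0.87.

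Markers of fat, which surrounds the aorta and which the labels' protocol says was cleaned off, were high in libraries where the contractile genes were low. In the average nicotine comparison 16 of 16 adipocyte markers were above 0, with a median of 0.68 and 0 called, and none was at 0 counts in any library. Their summed level was 6789 to 8371 CPM in WT Nicotine and 2296 to 7818 in WT Air. It was 4566 to 12212 CPM in KO Nicotine and 4371 to 7973 in KO Air. WT Air 9, with the highest contractile values, had the lowest sum (2296 CPM), KO Nicotine 4, with the lowest, had the highest (12212 CPM), and WT Air 8 had 7818 CPM against 3739 in WT Air 10. When the adipocyte score entered the fit as a covariate, the median log2 fold change of the 37 genes was -0.08 in WT, -0.12 in KO and -0.10 in the average, with 24, 28 and 28 of 37 below 0. Fat content and exposure overlap in these libraries, and its part in the nicotine differences was not tested.

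**Figure D5:**
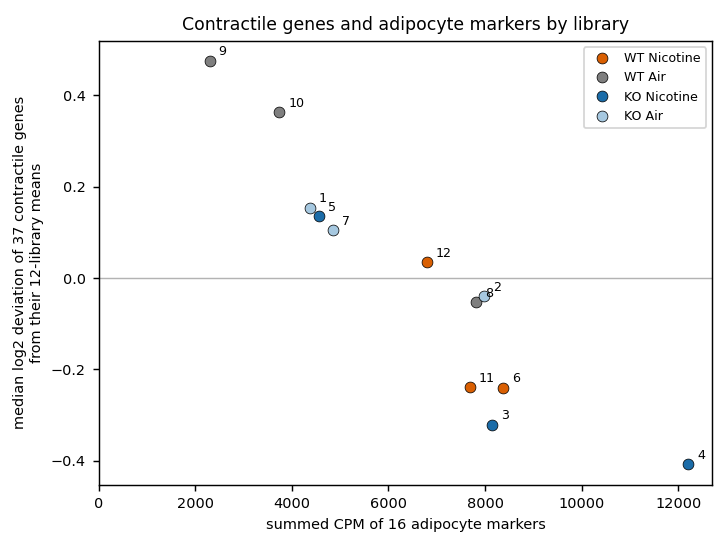
Median log2 deviation of the 37 contractile genes from their 12-library means (vertical axis) against the summed CPM of 16 adipocyte markers (horizontal axis), 1 point per library, numbered and coloured by group. Contractile values are high where the adipocyte sum is low, from WT Air 9 (2296 CPM, 0.48) to KO Nicotine 4 (12212 CPM, -0.41), and both measures share the same CPM scaling.

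Other marker lists also differed between groups or libraries. Of the macrophage markers, 11 of 11 tested were above 0 in WT. At an unadjusted p under 0.05, 9 of 11 were higher (5.43% of all tested genes), and 0 were called. Their summed level was 483 to 668 CPM in WT Nicotine and 306 to 328 in WT Air. In KO the sums overlapped, at 355 to 661 CPM in KO Nicotine and 317 to 509 in KO Air. Of the skeletal muscle markers, 12 of 14 tested were above 0 in the average nicotine comparison, with a median of 1.55. At an unadjusted p under 0.05, 9 of 14 were higher (5.62% of all tested genes), and 0 were called. Their sum, led by KO Nicotine 3 at 306 CPM, was 91.0 to 306 CPM in KO Nicotine, 64.8 to 114 in WT Nicotine, 74.6 to 90.6 in KO Air and 69.6 to 88.1 in WT Air, and Tnnc2 was at 0 counts in all 12. Mesothelial markers summed to 19.7 to 87.3 CPM in KO Nicotine, 24.0 to 36.2 in WT Nicotine, 29.7 to 116 in KO Air and 14.5 to 24.4 in WT Air. Adventitial fibroblast markers summed to 6583 to 7773 CPM in WT Nicotine and 5239 to 6510 CPM in WT Air, without overlap, and the KO groups overlapped. The sums of endothelial, brown fat, Schwann cell and cardiac muscle markers overlapped between nicotine and air in both genotypes. The cardiac muscle sum was 696 CPM in KO Air 2, with the next highest, 334 CPM, in WT Air 8. Casq2 also had its highest value in KO Air 2, at 4.70 CPM. With the skeletal muscle marker score as a covariate, the median nicotine log2 fold change of the 37 genes was -0.29 in WT, -0.16 in KO and -0.24 in the average. The part of the other lists in the differences of the contractile genes was not tested.

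In the authors' deposited table of nicotine against air, the 37 genes had the same sign as in the edgeR fit in WT and in KO, with log2 fold changes apart by at most 0.00570 and 0.00934. The authors' deposited table gave 0 of 37 an adjusted p under 0.05, with a smallest adjusted p of 0.204 in WT and 0.304 in KO. It listed 20 of 37 in WT and 7 of 37 in KO at an unadjusted p under 0.05. The share over all genes of that table was not computed. The adjusted and unadjusted counts of that table therefore have no background beside them and are not read as a result about the set.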

How the data were processed

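RNA of mouse thoracic aorta was measured in 12 libraries, prepared per the labels' protocols with the SMART-Seq v4 kit, whose reads do not mark strand, so reads of overlapping genes cannot be told apart. The deposited values are raw counts per gene symbol, made by the authors with HTSeq on build mm9, per the submitters' processing notes; for the aligner, the annotation and any version, the sources used here give none. Per the file headers, the authors' deposited comparison tables hold log2 fold changes with standard errors, a test score, and unadjusted and adjusted p-values. Counts were filtered with filterByExpr, scaled by TMM and fitted with edgeR 4.0.16 (robust quasi-likelihood, 4 group means, 8 residual degrees of freedom), with Benjamini-Hochberg adjustment over 14621 genes. Intervals are 95%. Library depth was 10240031 to 12628323 counts, and the median standard error of a difference of 2 groups was 0.22 on the log2 scale. Log2 ratios used a prior count of 2. Levels per kb used the joined length of all annotated exons of a gene in GENCODE vM21, an annotation of another build than the counts. Promoters came from RefSeq GRCm38.p6. The fit was tested on simulated counts.

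The members, lists and tests were chosen with earlier results of these data known. Library values are given for the 3 genes with the smallest p in each of 7 contrasts and always for Acta2, Myh11, Tagln, Mylk, Myocd and Srf; other pathway genes were named by the 3 smallest p in a contrast, of which the average nicotine contrast is printed, with the smallest of the others. Alternatives were DESeq2 1.42.0, limma voom 3.58.1, other size factors, filters and covariates, only the groups compared, no robust fit, and leaving out each library. Scripts ran in R 4.3.3 and in Python 3.11.15 with numpy 2.4.6, pandas 2.3.3 and, for figures, matplotlib 3.10.9.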

Additional observations from a re-analysis of the deposited data

How the results depend on the processing

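No paired analysis was possible because each library number occurs once and the groups share none. The number of genes called stayed at 0 of 37 in each contrast except the nicotine average. This held across scaling, filters, DESeq2, limma voom, covariates, the fit to the compared groups alone and the left-out libraries. In the nicotine average DESeq2 called 1 (Lmod1), beside 0.76% of all genes it tested. Fits leaving out each library called 0 to 1, the 1 being Lmod1 without WT Air 8. That fit called 38 genes over all tested, beside 0 in the main fit. With adipocyte score fitted as a covariate, the median log2 fold change of the 37 genes for nicotine was -0.082 in WT and -0.10 in the average, Myh11 in WT turned to 0.0071 and Srf in WT to 0.10; the cause was not tested. Leaving out each library in turn, Myocd for nicotine ran from -0.088 to 0.45 in WT and from -0.065 to 0.39 in KO, and the median interaction from -0.10 to 0.25. Of 751 refits of 43 single-gene and ratio values, 745 kept their direction and their side of the threshold, 4 reversed and 2 passed it. None of the 43 had passed in the main fit, and a change of size alone did not count. The 745 therefore do not show that the sizes held. Few counts limit Casq2 and Chrna7, and a single gene's interaction had a median standard error of 0.31.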
